A study of Mus musculus with 8 samples.

Results

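The 37 genes described here are interferon-stimulated genes of mouse macrophages, among them the Ifit, Mx, Oas, Isg15 and guanylate-binding protein genes, together with Ifnb1, the gene of interferon beta itself. They were taken by name and matched to the array through their Entrez gene numbers. All 37 had a probe set, and they are 37 of the 24012 genes measured. They were not chosen by a cutoff on these values, but the list was drawn up with earlier results of these data known.

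The cells were primary bone marrow-derived macrophages of wild-type mice aged 8 to 10 weeks, of a strain that the labels do not name, grown for 7 days in medium with 30% conditioned medium of L cells, a fibroblast line that secretes M-CSF, on which macrophages depend for their growth. They were reseeded in medium with 15% of that supplement, given 10 µg/ml hepcidin or PBS the next day, and lysed 1 h later. Hepcidin, a peptide hormone of the liver, makes cells internalise and degrade ferroportin, the protein through which they export iron. RNA of 4 samples with PBS and 4 with hepcidin was measured on 8 Affymetrix whole-transcript arrays, and the labels number the samples 1 to 4 in each group without saying whether a number stands for an animal, a culture or a day. P-values therefore reflect no more than the variation among these samples, and that variation may be technical.

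Values are log2 intensities, so that a difference of 1 is a 2-fold change. Array medians lay between 4.87 and 4.95, and 8 arrays are few, which limits precision. The first principal component of all genes held 36.2% of the variance and set the arrays numbered 1, at -34.5 with PBS and -25.9 with hepcidin, apart from the other 6, which lay between 6.76 and 13.2. All 7 measured macrophage markers, among them Adgre1 and Csf1r, had PBS means between 8.31 and 13.1. Markers of other cells lay above the background defined below in 8 of 12 cases for neutrophils and their precursors, 3 of 8 for plasmacytoid and 3 of 7 for conventional dendritic cells, 3 of 5 for endothelium, 3 of 6 for stroma, 1 of 5 for B cells and none of 7 for T and NK cells.

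Type I interferons such as interferon beta bind a receptor on nearly every cell, whose kinases activate the transcription factor complex ISGF3. ISGF3 binds the interferon-stimulated response element (ISRE) before its target genes and turns on a set of proteins that sense viral nucleic acid, degrade RNA, block translation or trap virus particles. Macrophages are known to keep many of these genes at a standing level even without infection, through small amounts of interferon that they make and sense themselves, and to raise interferon beta and then this set after contact with microbial products.

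Promoter sequences came from RefSeq (mouse build GRCm38.p6), each 300 bases long with 250 before and 50 after a transcription start. They were matched to 27 of the 37 genes by Entrez gene number. The ISRE core, searched as GAAANNGAAA on both strands, was present in 16 of these 27 genes (59.3%). It was present in 3.99% of the 27025 genes with a promoter sequence. The core of the gamma-activated site, searched as TTCNNNGAA, was present in 8 of the 27 (29.6%) against 9.55% of all genes, and the NF-kappaB motif was likewise present in 8 of the 27 (29.6%) against 9.55%. Matches of different motifs overlapped in 3 instances, in Bst2 and Ifit2. A match is a description of the sequence and not a measured binding site. The stretches below show the element in 6 members, 2 of them from the Ifit family, and the NF-kappaB motif before Ifnb1, which is the ligand and not a target. Capitals mark the motif, each stretch reads 5′ to 3′ on the strand of the gene, and the element appears either as written above or as its reverse complement.
Ifit1 (chr19:34640760-34640838, plus strand): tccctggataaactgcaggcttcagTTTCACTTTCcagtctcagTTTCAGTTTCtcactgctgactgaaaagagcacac
Ifit3 (chr19:34583348-34583441, plus strand): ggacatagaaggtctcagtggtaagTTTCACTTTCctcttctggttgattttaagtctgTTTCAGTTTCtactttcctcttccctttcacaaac
Isg15 (chr4:156200850-156200921, minus strand): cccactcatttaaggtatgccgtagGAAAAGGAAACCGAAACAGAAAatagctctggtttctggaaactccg
Rsad2 (chr12:26456538-26456597, minus strand): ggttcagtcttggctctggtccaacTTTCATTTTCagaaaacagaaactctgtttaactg
Oas3 (chr5:120777700-120777759, minus strand): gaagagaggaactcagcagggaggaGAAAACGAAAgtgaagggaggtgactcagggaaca
Gbp2 (chr3:142620579-142620638, plus strand): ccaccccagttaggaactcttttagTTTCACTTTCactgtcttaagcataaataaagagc
Ifnb1 (chr4:88522876-88522935, minus strand): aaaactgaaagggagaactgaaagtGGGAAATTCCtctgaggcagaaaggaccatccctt
Ifit1 and Ifit3 each held 2 copies of the core, and Isg15 held 3 overlapping copies in a row.

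With PBS alone most of the set was measured above background. The background was taken as the 95th percentile of 1091 olfactory receptor genes, which macrophages are not known to express, and lay at 4.77. The mean PBS level was above it for 35 of the 37 genes, against 52.1% of all genes. The 2 genes below it were Ifnb1, at 3.02 ± 0.08 (SD, n = 4), and Gbp5, at 4.34 ± 0.32. Ifnb1 thus lay near the median of the olfactory receptor genes, 2.92. Mx1, Mx2 and Ifi205 had a mean above the limit but lay below it on the PBS array numbered 1, at 4.59, 4.59 and 4.56. PBS means of the other 35 genes lay between 5.56 (Mx2) and 10.4 (Oasl2). Probe sets differ in brightness, so these levels are not ranked between genes.

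The set was also uneven between the 4 PBS arrays. The SD over these arrays had a median of 0.48 over the 37 genes, against 0.15 over all genes, and ran from 0.08 in Ifit3 and Ifnb1 to 1.29 in Mx1. The spread was shared between members: the PBS array numbered 1 was the lowest of the 4 in 35 of the 37 genes, and the hepcidin array numbered 1 was the lowest of its group in 30. Over all 24012 genes these counts were 7105 and 6742. Over the 12488 genes whose mean of all 8 arrays was above the background limit, they were 4814 and 3847. In the fit with treatment and number, the share of a gene's sum of squares over the 8 arrays that lay between numbers had a median of 91.4% over the members. Over all genes it was 55.7%, and over the genes above background 69.9%. The share that lay between treatments had a median of 1.76% over the members and 5.12% over all genes.

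**Figure D1:**
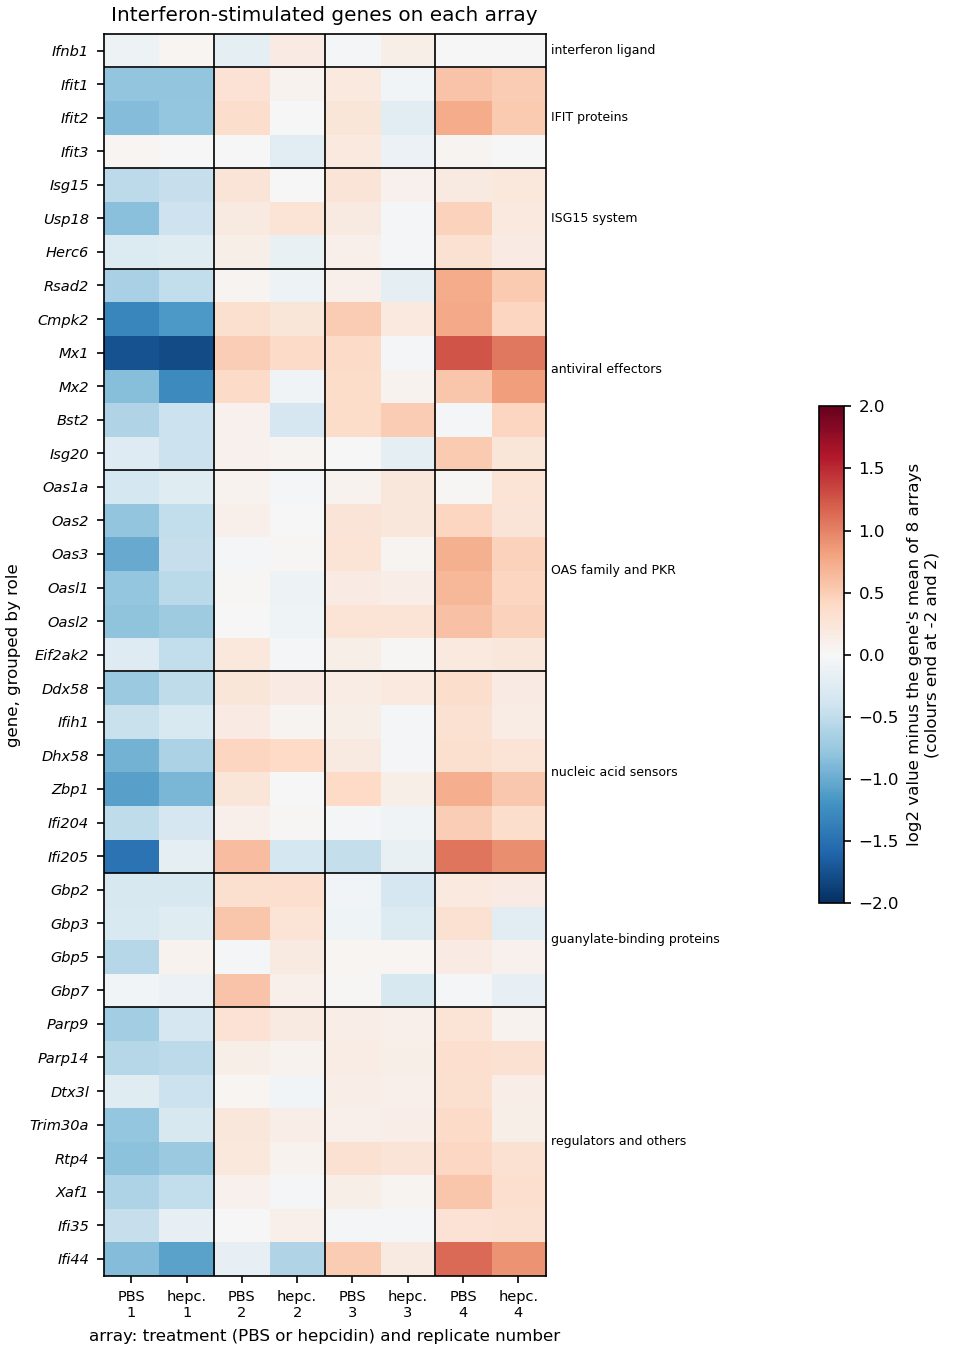
Each row is 1 of the 37 genes, grouped by role, and each column 1 of the 8 arrays, ordered by replicate number with PBS before hepcidin; the colour is the log2 value minus that gene's mean over the 8 arrays. The arrays numbered 1 are blue in nearly every row and those numbered 4 mostly red, while PBS and hepcidin arrays of 1 number look alike; Ifnb1 and Ifit3 lack the pattern.

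Differences between numbers passed limma's F-test (adjusted p under 0.05 over all genes) in 22 of the 37 members, against 5.61% of all genes. Of the 12488 genes above background, 1265 passed. Number 1 was then set against the mean of numbers 2 to 4. It was singled out because earlier results of these data had set it apart, so what follows describes that difference gene by gene. Of the members, 30 were lower on number 1 and none was higher, and 4.36% of all genes were lower and 3.3% higher (limma, adjusted p under 0.05). Among the 12488 genes above background, 1005 were lower and 688 higher. The median difference was -0.73 over the members and 0.01 over all genes. In 10 of the 30 the difference was over 2-fold, and it was also over 2-fold in Ifi205, which did not pass. Each number stands for 1 pair of arrays, so the comparison has no replication of the number itself.

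The genes of direct antiviral effectors held the widest differences, and all 6 were lower on number 1. Mx1, a GTPase that blocks influenza viruses, read 4.59 with PBS and 4.54 with hepcidin on number 1. It read 6.83 and 6.71 on number 2, 6.71 and 6.30 on number 3, and 7.59 and 7.39 on number 4. The pair numbered 1 lay below the background limit and the other 6 arrays well above it, with no overlap. The difference of the measured values was -2.36 ± 0.10 (limma, SE, adjusted p = 4.27e-05). Against the background limit in place of the values below it, Mx1 was at least 4.46-fold lower on number 1. Cmpk2, a mitochondrial nucleotide kinase that lies beside Rsad2 in the genome, read 7.53 and 7.68 on number 1 and between 9.03 and 9.59 on the others, a difference of -1.63 ± 0.11 (limma, adjusted p = 0.000369). Mx2, the second mouse Mx GTPase, read 4.59 and 4.17 on number 1 against 5.37 to 6.28 on the others, a difference of -1.42 ± 0.15 (adjusted p = 0.00195). Its values on number 1 also lay below the background limit, and against that limit it was at least 2.05-fold lower. Rsad2, which encodes viperin, differed by less (-0.76 ± 0.10), and it was highest on number 4, at 10.47 with PBS and 10.25 with hepcidin. Bst2 encodes tetherin, which holds virus particles at the cell surface, and differed by -0.68 ± 0.15, and Isg20, an RNA exonuclease gene, by -0.46 ± 0.09.

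**Figure D2:**
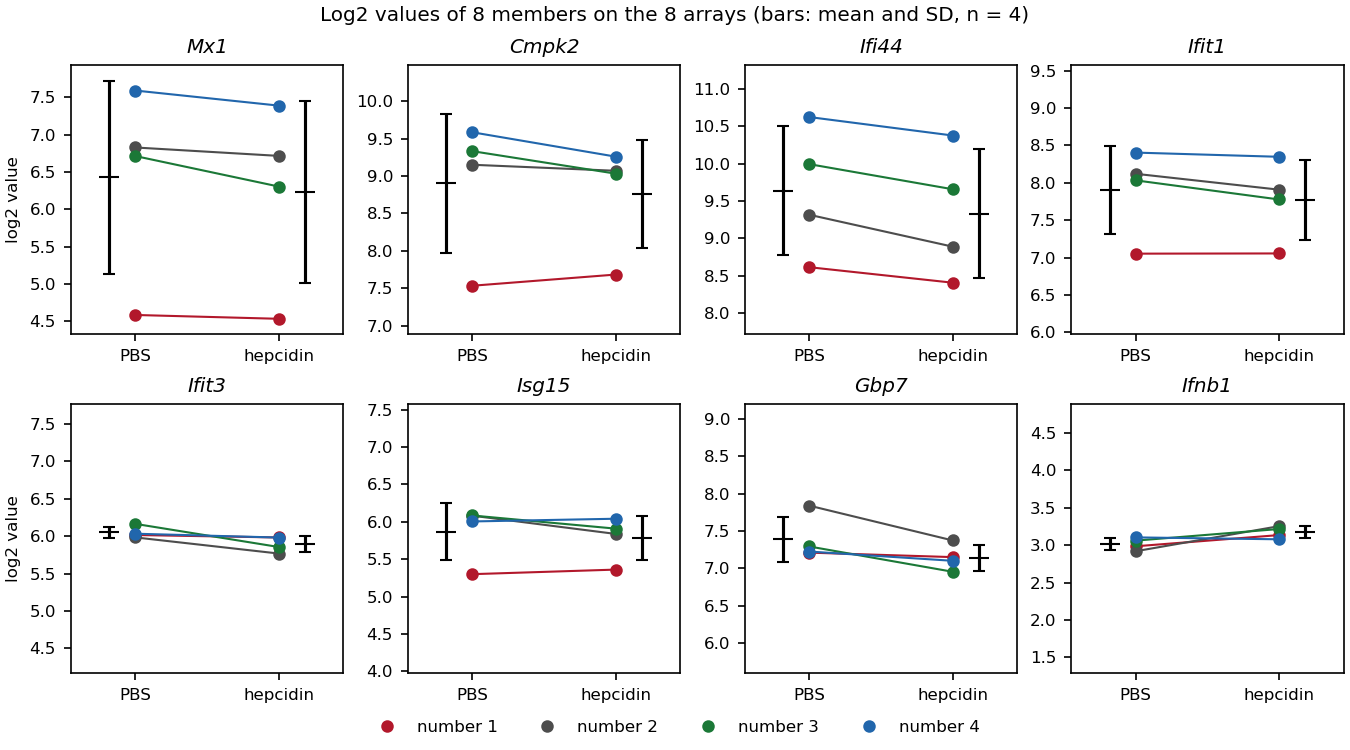
Log2 values of 8 members with PBS and hepcidin; points joined by a line share a replicate number, and the bars beside them are the mean and SD of the 4 arrays of a treatment, all panels spanning the same height. In Mx1, Cmpk2, Ifi44 and Ifit1 the numbers lie far apart, and the widest change along a line is -0.43 (Ifi44, number 2). All 4 lines fall in Ifi44 and Mx1. Ifit3 and Ifnb1 lie close together at every number.

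The Ifit1 protein binds viral RNA that lacks the host's cap methylation, and the 3 members of the IFIT family split. Ifit1 read 7.05 and 7.06 on number 1 and between 7.78 and 8.40 on the other 6 arrays, a difference of -1.04 ± 0.09 (limma, adjusted p = 0.000824). Ifit2 read 5.84 and 5.93 against 6.47 to 7.45, a difference of -1.09 ± 0.12 (adjusted p = 0.00232). Ifit3 read 6.02 and 5.98 on number 1 and between 5.77 and 6.16 on the others, so that the numbers overlapped, and its difference was 0.03 ± 0.09 (adjusted p = 0.881). Ifit3 was the only member with a difference above zero. It carries 2 copies of the ISRE core in the stretch printed above, as Ifit1 does. Whether probes of near-identical gene copies share signal was not tested.

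Of the ISG15 system, a ubiquitin-like protein with the enzymes that attach and remove it, Isg15 read 5.30 and 5.36 on number 1 and 5.84 to 6.09 on the others, a difference of -0.66 ± 0.10 (limma, adjusted p = 0.00697). Usp18, the protease that removes ISG15 and dampens the interferon receptor, read 8.48 with PBS and 8.90 with hepcidin on number 1 and 9.29 to 9.78 elsewhere, a difference of -0.84 ± 0.14 (adjusted p = 0.0118). Herc6, the mouse ligase that attaches ISG15, differed by -0.34 ± 0.09 and did not pass (adjusted p = 0.0626).

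The enzymatically active 2′-5′ oligoadenylate synthetases make the messenger that switches on RNase L, and PKR, the product of Eif2ak2, halts translation on double-stranded RNA. All 6 genes of this role were lower on number 1. Oasl2 read 9.62 and 9.71 on number 1 and between 10.34 and 10.99 on the others, and the difference was -1.01 ± 0.08 (limma, adjusted p = 0.000778). Oas3 read 7.57 with PBS and 8.11 with hepcidin on number 1, a gap wider than in any other pair of this gene, and 8.54 to 9.29 on the others, a difference of -0.98 ± 0.15 (adjusted p = 0.00921). Oasl1, Oas2, Eif2ak2 and Oas1a differed by -0.87, -0.85, -0.50 and -0.40, each past the threshold.

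Of the 6 sensors of foreign nucleic acid, 5 were lower on number 1. Zbp1, which senses Z-form nucleic acid and can start necroptosis, read 6.95 and 7.13 on number 1 and 8.04 to 8.76 on the others, a difference of -1.34 ± 0.11 (limma, adjusted p = 0.000673). Dhx58, which encodes LGP2, a regulator of the RIG-I pathway, read 7.68 and 7.99 against 8.59 to 9.05, a difference of -1.05 ± 0.11. Ddx58, which encodes RIG-I, differed by -0.84 ± 0.10, Ifi204, a DNA sensor gene, by -0.56 ± 0.09, and Ifih1, which encodes MDA5, by -0.49 ± 0.09. Ifi205, another gene of the Ifi200 family, was uneven in another way. It read 4.56 and 5.85 on number 1, 6.66 and 5.69 on number 2, 5.56 and 5.88 on number 3, and 7.11 and 6.97 on number 4. The arrays of 1 number thus differed by up to 1.29, and its difference of -1.10 ± 0.35 did not pass (adjusted p = 0.11).

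The guanylate-binding proteins are GTPases that attack the vacuoles of intracellular microbes and answer mainly to interferon gamma. Only Gbp2 of the 4 was lower on number 1, at 6.68 and 6.69 against 6.66 to 7.34, a difference of -0.42 ± 0.09 (limma, adjusted p = 0.0355). Here the groups overlapped, since the hepcidin array numbered 3 read 6.66. Gbp3 was highest on number 2, at 7.10 and 6.81, and differed by -0.36 ± 0.12 (adjusted p = 0.116). Gbp7 was highest there too with PBS, at 7.84, and differed by -0.12 ± 0.10 (adjusted p = 0.587). Gbp5, below background with PBS, differed by -0.33 ± 0.14 (adjusted p = 0.225). The mean was highest on number 2 in Gbp2, Gbp3 and Gbp7 and on number 4 in Gbp5.

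All 8 remaining members were lower on number 1. Ifi44, an antiviral gene, read 8.61 and 8.41 on number 1, 9.31 and 8.89 on number 2, 9.99 and 9.66 on number 3, and 10.62 and 10.37 on number 4. No pair overlapped another, number 4 was highest, and the difference of number 1 was -1.30 ± 0.09 (limma, adjusted p = 0.000311). Rtp4, a Golgi chaperone gene, read 8.26 and 8.33 against 9.14 to 9.49, a difference of -1.04 ± 0.09. Xaf1, a gene that promotes cell death, Trim30a, a ubiquitin ligase gene, Parp14 and Parp9, ADP-ribosyltransferase genes, Dtx3l, the ligase partner of Parp9, and Ifi35 differed by -0.74, -0.73, -0.73, -0.69, -0.45 and -0.41.

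**Figure D3:**
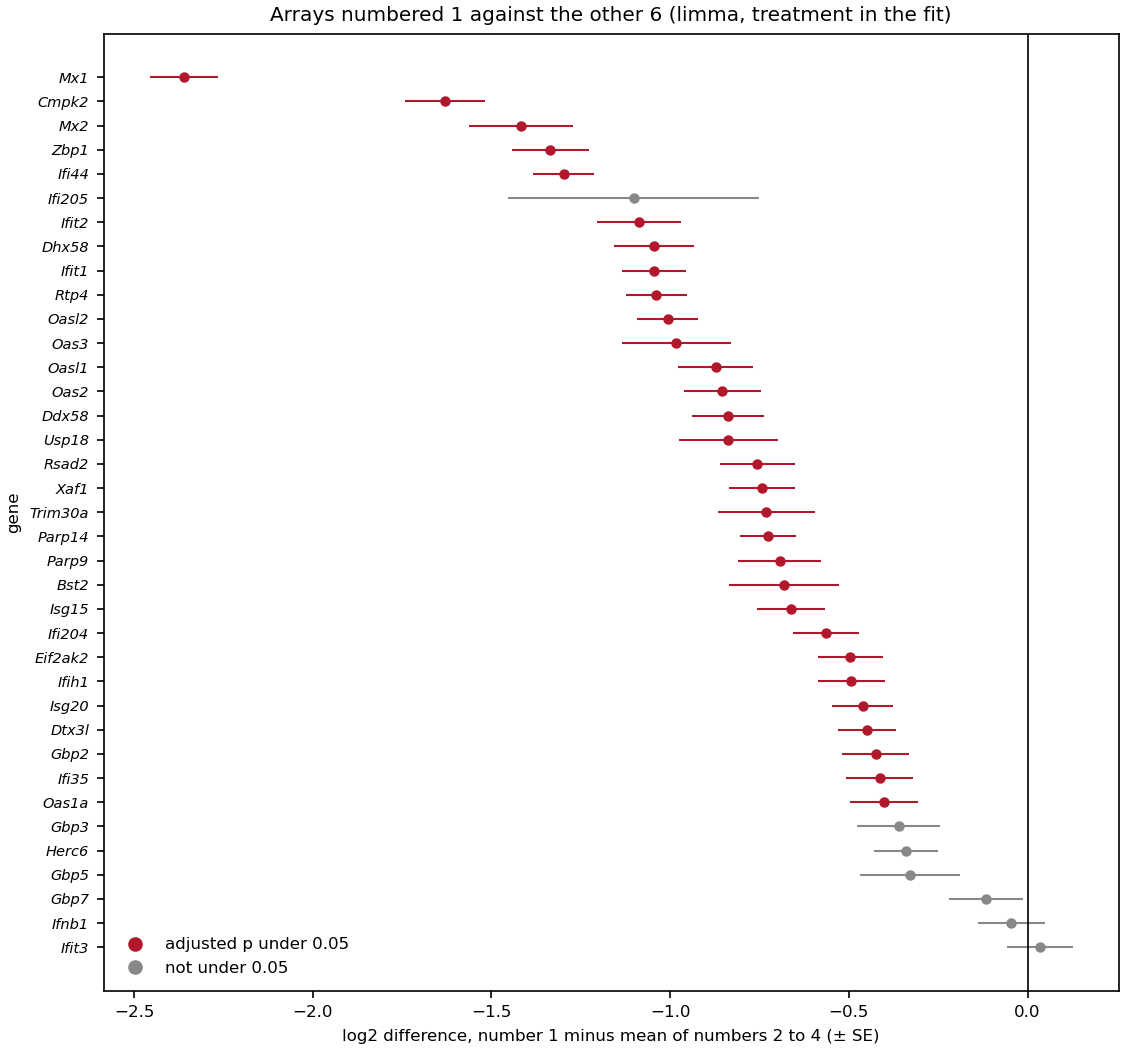
Log2 difference of the 37 genes between the arrays numbered 1 and the mean of numbers 2 to 4 (points, ± SE; limma with treatment in the fit), in order of size. The red points, 30 genes, had an adjusted p under 0.05 and lie between -2.36 and -0.40; the grey points are the other 7.

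Both arrays numbered 1 were the lowest 2 of all 8 in 30 members, against 10.1% of all genes. Both arrays numbered 4 were the highest 2 in 18 members, against 5.93%. Among the 12488 genes above background these counts were 2058 and 1042. The mean of number 4 was the highest of the 4 numbers in 29 of the 37. Over all 24012 genes this count was 5739, and over the 12488 above background 2989. Medians of the members' deviations from their own means were -0.55 on number 1, 0.09 on number 2, 0.09 on number 3 and 0.32 on number 4. Among numbers 2 to 4 alone, the F-test called Mx1 (adjusted p = 0.0473) and Ifi44 (adjusted p = 0.0375), and 0.7% of all genes. The unadjusted p was under 0.05 in 19 members, against 14.7% of all genes.

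The pair was then reduced to 1 array at a time. Without the PBS array numbered 1, the number was represented by its hepcidin array alone, the lone sample was assumed to vary like the others, and 11 members were lower, with a median difference of -0.57, against 0.883% of all genes (limma, adjusted p under 0.05). These were Ifit1, Ifit2, Cmpk2, Mx1, Mx2, Oasl2, Dhx58, Zbp1, Parp14, Rtp4 and Ifi44. Without the hepcidin array numbered 1, 24 members were lower, with a median of -0.93, against 2.54% of all genes. Fewer were thus called without the PBS array than without the hepcidin array, among the members as among all genes.

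The members were 30 of the 1047 genes lower on number 1 (2.87%), and 7 of the 100 genes with the lowest difference over the whole table. Mx1 was the 7th lowest and Cmpk2 the 27th. Other gene groups stood lower on number 1 as well. Of 12 markers of neutrophils and their precursors, such as Elane, Mpo and S100a8, 9 were lower on number 1. Their mean level was 4.72 with PBS and 4.59 with hepcidin on number 1 and between 5.65 and 6.08 on the other 6 arrays, and 8 of the 12 were above background with PBS. In RNA of whole cultures, fewer cells of a type and less RNA per cell cannot be told apart. Of 15 genes of sterol synthesis and uptake, 13 were lower on number 1, with mean levels of 7.32 and 7.40, but number 4 was low too, at 7.52 and 7.55, against 8.35 to 8.43 on numbers 2 and 3. The mean level of the 37 interferon-stimulated genes was highest on number 4, at 8.50 and 8.38, against 7.40 and 7.55 on number 1. Of the 7 macrophage markers, 4 were lower on number 1. One of these was Fcgr1 (-1.87, adjusted p = 0.000311), a receptor gene that interferon gamma is known to induce, and Adgre1 and Cd68 were not among them. Of 8 markers of plasmacytoid dendritic cells, which are known for making type I interferon, 3 were above background with PBS. Cox6a2 was higher on number 1 (3.11 ± 0.08, adjusted p = 1.05e-05) and Tcf4 lower (-0.35 ± 0.08, adjusted p = 0.0431). The mean level of the 8, Cox6a2 included, was 5.32 with PBS and 5.24 with hepcidin on number 1 and between 4.86 and 4.93 on the others. Their median level was 4.20 and 4.17 on number 1, within the range of 4.02 to 4.42 on the others. These medians all lay below the background limit. The part of these groups in the interferon-stimulated difference was not tested.

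Upstream genes of the pathway were described in the same way. Of 16 measured genes of interferon ligands, 7 were above background with PBS, none was lower on number 1 and 1 was higher, Ifnz, an interferon zeta gene (1.21 ± 0.22, limma, adjusted p = 0.0166), named after its value was seen. Ifnz averaged 5.55 on number 1 and lay below background on numbers 2 to 4, so against the limit it was at least 1.72-fold higher. Of 15 genes of receptors and signalling, all above background, 2 were lower on number 1 and none was higher. They were Irf7, the factor that amplifies type I interferon (-1.37 ± 0.16, adjusted p = 0.00282), and Stat2, a subunit of ISGF3 (-1.01 ± 0.12, adjusted p = 0.00349), both of which interferon is known to induce. Irf9, the DNA-binding subunit of ISGF3, differed by -0.25 ± 0.09 (adjusted p = 0.146). Of 15 sensors upstream of interferon, 11 had a difference below zero, with a median of -0.29 and a median share of 84.8% of the sum of squares between numbers. The unadjusted p was under 0.05 in 10 of them on the lower side, against 11.5% of all genes, and 2 passed the adjusted threshold, the endosomal receptor genes Tlr9 (-1.30 ± 0.08, adjusted p = 0.000221) and Tlr7 (-0.71 ± 0.09, adjusted p = 0.00528). Tlr7 and Tlr9 are named because they are the only 2 called, after their values were seen.

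Of 72 measured interferon-stimulated genes outside the 37, 64 were above background with PBS, 41 were lower on number 1 and 3 were higher, with a median difference of -0.49. Their median share of the sum of squares between numbers was 92.3%. The 3 that were higher, named after their values were seen, were Gbp8, another guanylate-binding protein gene (3.51 ± 0.12, adjusted p = 1.8e-05), Cd274, which encodes the checkpoint ligand PD-L1 (1.12 ± 0.09, adjusted p = 0.000673), and Zc3hav1, which encodes the antiviral zinc finger protein ZAP (0.53 ± 0.08, adjusted p = 0.00818). Gbp8 averaged 7.62 on number 1 and 4.29, 3.97 and 4.07 on numbers 2, 3 and 4, so it was above background only on number 1, and its measured difference is against values below background. Against the limit it was at least 7.25-fold higher there.

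The median difference on number 1 was -0.58 over the 16 members with the ISRE core in the searched window. It was -0.74 over the 11 members with a promoter sequence and no core. The 2 groups differ in kind. The 16 include Gbp2, Gbp3, Gbp5 and Gbp7, and also Ddx58, Eif2ak2 and Ifih1, whose only match to the core lies after the start. The 11 include Ifnb1, the ligand, and the remaining members had no promoter sequence. Whether the core goes with the difference between numbers was not tested. Outside the 37, the core was present in 27 of 58 other interferon-stimulated genes with a promoter sequence (46.6%).

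Against this spread, hepcidin for 1 h left no member past the threshold. None of the 37 passed limma's adjusted p of 0.05, and the share of all genes called was 0.0%. None had an unadjusted p under 0.05 either, against 2.85% of all genes. The median change, hepcidin minus PBS, was -0.07 over the members and 0.00 over all genes, with 13 members above zero. Changes ran from -0.30 (Ifi44) to 0.19 (Gbp5). The 95% interval of a member's change had a median half-width of 0.53 on the log2 scale, and it lay within 0.5 of zero on both sides in 12 members, so larger changes were not excluded in the others.

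The same-numbered arrays deviate together, so the comparison was repeated with the number as a block, that is, within pairs. No member passed the adjusted threshold there (smallest adjusted p = 0.78, Ifi44), and 0.00416% of all genes did. That share is a single gene outside the list, Cxcl2, a neutrophil-attracting chemokine gene, with a change of 2.25 ± 0.17 (limma, adjusted p = 0.0405), named after its value was seen. The unadjusted p was under 0.05 in 4 members, a share above the 4.91% of all genes, and all 4 had lower values with hepcidin. Ifi44 changed by -0.30 ± 0.07 with the block (unadjusted p = 0.00365). It was lower with hepcidin in each of the 4 pairs, as were Ifit3, Mx1, Isg20, Gbp7 and Dtx3l. The share of all genes that did so is not given here. Gbp7 changed by -0.25 ± 0.09 (unadjusted p = 0.0255), Ifit2 by -0.24 ± 0.10 (unadjusted p = 0.0449) and Mx1 by -0.19 ± 0.08 (unadjusted p = 0.0494). Within pairs the half-width of the interval had a median of 0.19, and the interval lay within 0.5 of zero in 35 members, all but Ifi205 and Mx2.

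**Figure D4:**
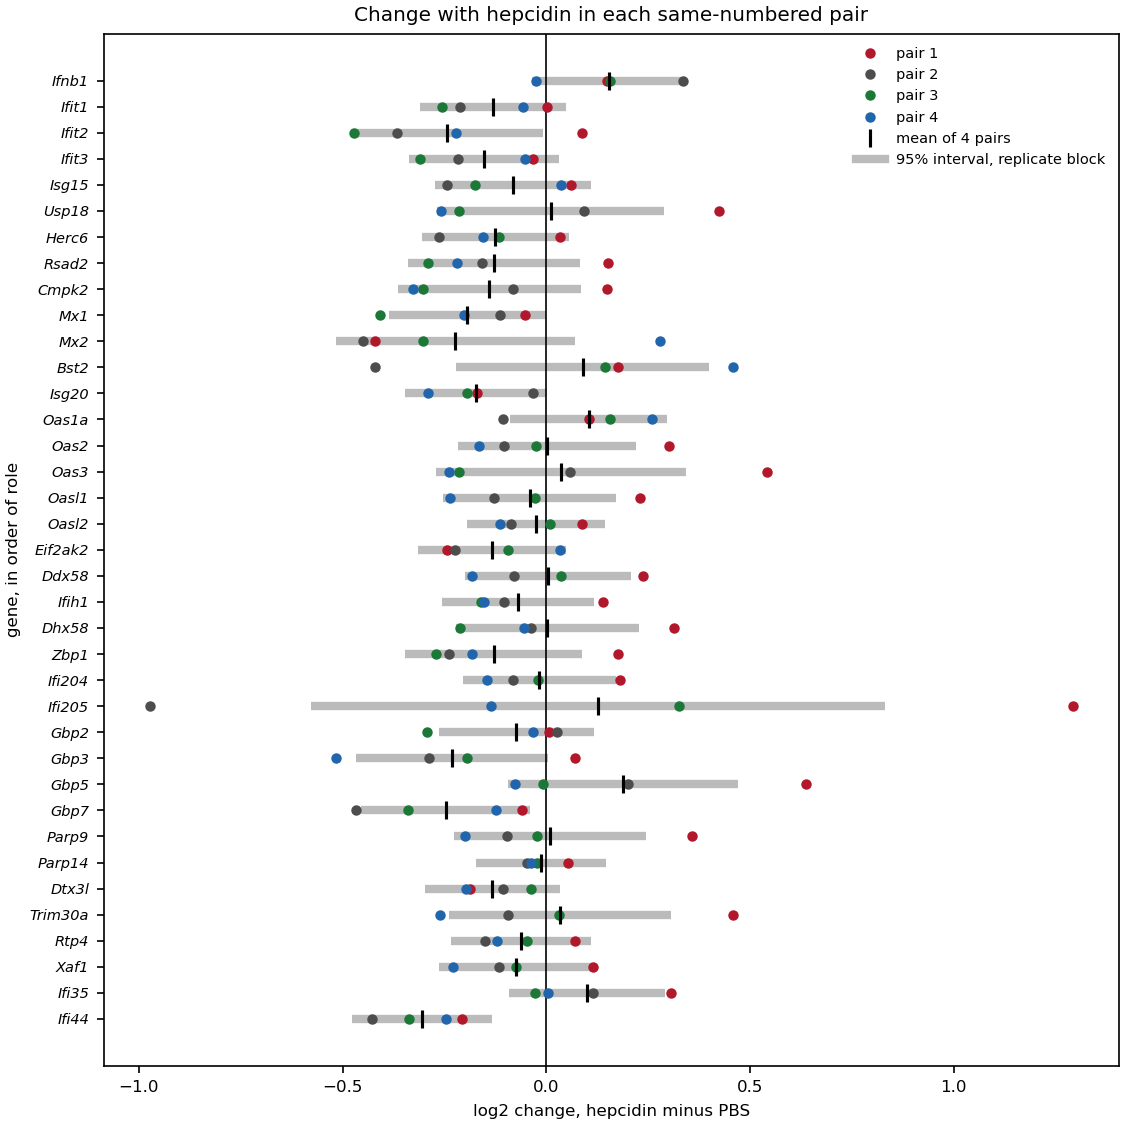
Log2 change, hepcidin minus PBS, of the 37 genes in each same-numbered pair (points), with the mean of the 4 pairs (bar) and its 95% interval from the fit with the replicate number as a block (grey). Points of pair 1 lie to the right of the other 3 pairs in many genes, and most means lie between -0.3 and 0.2.

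Pair 1 moved apart from the others here too. In pair 1 the median change was 0.12, with 29 of the 37 members above zero. In pairs 2, 3 and 4 it was -0.11, -0.12 and -0.15, with 6, 7 and 6 members above zero. Over all genes the median changes of the 4 pairs lay between -0.01 and 0.01. Over the 12488 genes above background, pair 1 stood apart as well, with a median change of 0.05 and 7430 genes above zero, against -0.01, 0.00 and -0.01 in pairs 2, 3 and 4. The difference between pair 1 and the rest, tested as an interaction, called none of the members and 0.0% of all genes (limma, adjusted p under 0.05). It sets a single pair against 3, so a call that is missing here says little. Its unadjusted p was under 0.05 in 11 members, against 9.07% of all genes. In all 11 the change was higher in pair 1, against 4.63% of all genes that were called in that direction. Pair 1 had been singled out from these same data. The 11 members share that pair and vary together over the arrays, so they are not separate findings. The count was 5 to 7 when 1 array of the other pairs was left out and 6 with quantile or cyclic loess normalization. The widest of them was Ifi205, where hepcidin minus PBS was 1.29 in pair 1 and -0.97, 0.33 and -0.14 in pairs 2, 3 and 4.

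Without both arrays numbered 1, and within the 3 remaining pairs, 8 members had an unadjusted p under 0.05, against 5.51% of all genes, and all 8 were lower with hepcidin. They were Ifit2, Rsad2, Cmpk2, Mx1, Zbp1, Gbp3, Gbp7 and Ifi44, with changes between -0.35 (Ifit2) and -0.22 (Rsad2). Their adjusted p lay between 0.878 and 0.902, so none passed over all genes. The median change of the 37 was then -0.13, with 5 above zero. Number 1 had been singled out from these same data, and its pair was the one in which most members rose. Leaving it out therefore moves the changes lower by construction. The members also vary together over the arrays, so the 8 are not separate findings.

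Ifit3 and Ifnb1 differed from the rest in that more of their spread lay between treatments than between numbers. Ifit3 read 6.02, 5.98, 6.16 and 6.03 with PBS and 5.98, 5.77, 5.85 and 5.98 with hepcidin on numbers 1 to 4. It was the only member whose treatment groups did not overlap, against 1.88% of all genes, and the groups were apart by less than 0.01. Its change was -0.15 ± 0.08 (limma, adjusted p = 1.00, unadjusted p = 0.0975), with 47.3% of its sum of squares between treatments and 25.8% between numbers. Ifnb1 read 2.99, 2.92, 3.06 and 3.11 with PBS and 3.14, 3.26, 3.22 and 3.08 with hepcidin. All 8 values lay below background, and the groups overlapped. The change of 0.15 ± 0.08 had the smallest unadjusted p of the members, 0.0815. Of its sum of squares, 54.8% lay between treatments and 7.38% between numbers.

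**Figure D5:**
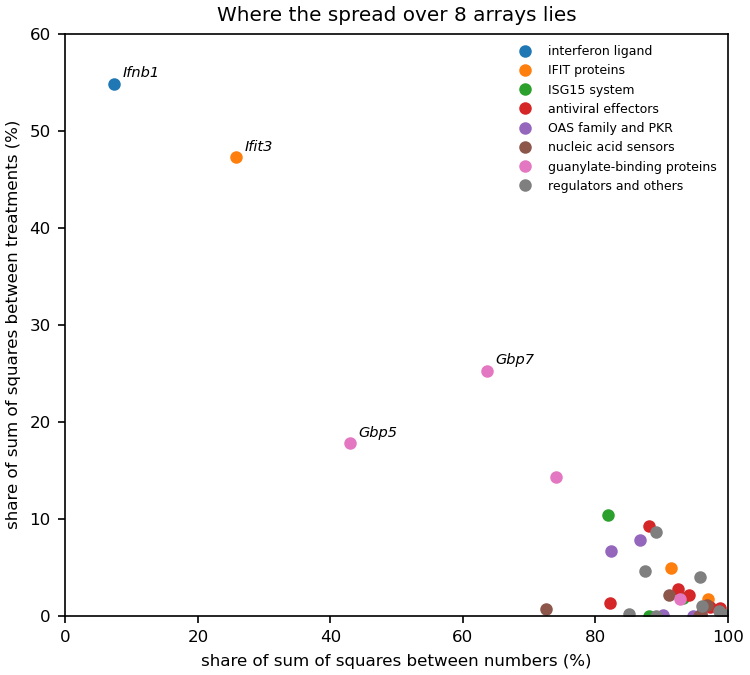
Share of each gene's sum of squares over the 8 arrays that lies between the 4 replicate numbers (x axis, percent) and between the 2 treatments (y axis, percent), coloured by role. Most of the 37 genes lie at the lower right, 21 of them beyond 90% on the x axis, while Ifnb1 and Ifit3 lie at the upper left.

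Of the measured genes in the other lists, none passed the adjusted threshold for hepcidin against PBS (limma). Of the ligands, Ifnl3, an interferon lambda gene, had the smallest unadjusted p (0.023), with a change of 0.28 ± 0.10, followed by Ifna9 with -0.18 ± 0.08 (0.0476). Ifna9 lay below background, at a mean of 3.47 with PBS and 3.28 with hepcidin. Among receptors and signalling, Irf1, an early factor that acts on interferon genes and their targets, read a mean of 6.94 ± 0.17 (SD, n = 4) with PBS and 7.37 with hepcidin, a change of 0.43 ± 0.10 (unadjusted p = 0.00187), and Ifngr2, a chain of the interferon gamma receptor, followed with 0.14 ± 0.09 (unadjusted p = 0.16). Among the sensors, Ikbke, a kinase gene of the interferon-inducing branch, changed by 0.29 ± 0.10 (unadjusted p = 0.0212) and Ticam1, which encodes the adaptor TRIF, by 0.15 ± 0.13 (unadjusted p = 0.261). Of the 72 other interferon-stimulated genes, none had an unadjusted p under 0.05, against 2.85% of all genes. The smallest p-values were those of Slfn2 (0.17, unadjusted p = 0.0866) and Iigp1 (-0.35, unadjusted p = 0.0927). Iigp1 lay below background, at a mean of 3.39 with PBS and 3.04 with hepcidin. With the number as a block, 4 of the 72 had an unadjusted p under 0.05, a share close to the 4.91% of all genes. None passed the adjusted threshold. They were Cxcl10, a chemokine gene (0.45, unadjusted p = 0.00506), Iigp1 (-0.35, unadjusted p = 0.00562), Gbp8 (-0.29, unadjusted p = 0.0249) and Ifi203 (-0.25, unadjusted p = 0.03), all but Iigp1 named after their values were seen. Within pairs, the unadjusted p was also under 0.05 in 2 of the 16 ligands, Ifnl3 (0.0148) and Ifna7 (0.0462), and in Irf1 (0.00394) and Ikbke (0.0144). The share of all genes was the same 4.91%, and these lists are too short to set against it. Stat2, Irf7 and Irf9 changed by -0.03, 0.05 and -0.02.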

How the data were processed

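Total RNA of the 8 samples was labelled with biotin and hybridised to whole-transcript arrays, per the labels' protocols. The deposited log2 values were made by the authors with RMA, which corrects background, equalises the arrays and summarises probes; the submitters' processing notes name RMA and affy 1.36.1. For probe set definition and genome build, nothing was given in the sources used here. The table held 24973 probe sets, and 24015 had 1 symbol in the platform annotation. Each symbol kept 1 probe set, which left 24012 genes. Of the members, 36 were named by the annotation and Ifi44 by its RefSeq gene number. List genes without a probe set were not analysed here.

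No value was filtered or normalized again. Genes were tested with limma 3.58.1 in R 4.3.3 (lmFit, eBayes) and adjusted over all genes by Benjamini-Hochberg, at a threshold of 0.05. Treatment was tested without and with the replicate number as a block, and numbers were tested in the fit with treatment. Across genes, deviations from the group mean correlated at 0.548, 0.344, 0.388 and 0.368 between arrays of the same number and at -0.356 to 0.123 between others, so the 4 numbers pair the arrays, as the titles number them. The fits were tested on simulated data. Members may all be named; of other lists, genes past the threshold or the 2 smallest p-values, with Stat2, Irf9 and Irf7. The members and lists were chosen with earlier results of these data known. Alternatives were other normalizations, all probe sets, a filter on dim genes, array weights, a robust variance trend, the number as a fixed or random block, other background limits and leaving out arrays. Figures used matplotlib 3.10.9 and pandas 2.3.3 in Python 3.11.15.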

Additional observations from a re-analysis of the deposited data

Results flagged for a closer look

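In 11 of the 74 groups of 4 arrays (37 genes, PBS or hepcidin), 1 array stood apart: its gap to the nearest other array, divided by the group's whole range, was above Dixon's 95% critical value for 4 values. Chance alone passes this limit in about 1 in 20 groups. In 8 of the 11 it was an array numbered 1 that was lowest. With PBS these were Isg15 at 5.30, Mx2 at 4.59, Oas1a at 7.09, Parp9 at 7.86 and Rtp4 at 8.26. With hepcidin they were Cmpk2 at 7.68, Ddx58 at 9.38 and Trim30a at 9.25. In the other 3 an array was highest: Ifi205 with hepcidin on number 4 at 6.97, Gbp3 with hepcidin on number 2 at 6.81, and Gbp7 with PBS on number 2 at 7.84.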

How the results depend on the processing

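The count of members called for hepcidin against PBS was 0 at the adjusted threshold in the fit and all 19 alternatives. The count with an unadjusted p under 0.05 was 0 and became 4 with the replicate block and 8 without both arrays numbered 1 with the block; the block changed no call at the adjusted threshold. The median change was -0.07, between -0.13 and -0.05 under the other settings, and between -0.27 (PBS array 1 left out) and 0.15 (hepcidin array 1 left out) when single arrays were dropped, so its sign rests on single arrays. It was 0.10 without the PBS array numbered 4. The 22 members called between numbers became 10 to 19 without 1 array, 2 without both arrays numbered 1, and 31 with the filter on dim genes and with trend and robust variance. The 30 members lower on number 1 became 11 to 26 without 1 array and 26 to 31 under the other settings, and their median of -0.73 lay between -0.93 and -0.57 without 1 array. The interaction called 0 members in every setting that could be fitted; its 11 members with an unadjusted p under 0.05 became 5 to 7 without 1 array, 6 with quantile or cyclic loess normalization and 14 or 15 with median centring or trend and robust variance. Stricter background limits of 5.41 and 5.70 left 34 to 35 members above them. Values of dim genes such as Ifnb1, Gbp5 and, on number 1, Mx1 and Mx2 lie near background, which limits what their differences can show.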
